A study of Homo sapiens with 4 samples.

Results

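Of 2063 regions whose H3K4me3 was reduced in MDA-MB-231 cells treated with 2.5 μM Tat-SID, 347 lay at a promoter of a single protein-coding gene that had no CpG island. They were chosen by the deposited list itself and by sequence: a region counted when exactly 1 protein-coding gene start lay within 3 kb of it, and when the sequence 1 kb on each side of that transcription start site (TSS) failed at least 1 of 2 tests for a CpG island, a GC content over 50% and a ratio of observed to expected CpG dinucleotides over 0.6. The 347 regions belonged to 347 different genes. The same choice with both tests passed gave 788 regions, so promoters without an island made up 30.6% of the reduced single-gene promoters (95% interval 27.9 to 33.3%). This share depends on how an island and a gene start are defined. It was 65.8% with the CpG test over 2 kb on each side and 52.2% with a stricter island. It was 21.9% with the test over 500 bp on each side, 26.9% with the canonical start and 21.6% with every transcript start. The 347 promoters included genes of inflammation and tissue invasion such as CXCL8, IL1A, MMP1 and LAMB3, and the interferon-induced genes IFIT3 and IFI44. Genes of every dividing cell such as CDK1, CCNA2 and RPL35A were also among them.

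H3K4me3 is a histone mark laid down around the start sites of transcribed genes by SET1 and MLL methyltransferases and removed by KDM5 demethylases. CpG islands, unmethylated stretches rich in CpG, recruit these methyltransferases through proteins with CXXC domains and carry the mark at most genes that are active in all tissues. Promoters without an island are typical of genes used in particular tissues or switched on by a stimulus, and they usually carry the mark only where the gene is transcribed.

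The MDA-MB-231 line was derived from a human breast cancer that lacks the hormone receptors and HER2. Tat-SID is a cell-permeable decoy made of the SIN3 interaction domain of MAD, and it occupies the PAH2 domain of the corepressor SIN3A, to which the chromatin factor PF1 also binds. Native ChIP-Seq for H3K4me3 was done on 1 library each of untreated cells, cells given 1 μM Tat-SID and cells given 2.5 μM Tat-SID, with 1 library of input DNA, all from the same cell line. Both doses were compared by the authors with the same untreated library, which the labels call the control and the study's methods call untreated. The antibody was Abcam ab1012, and the treatment lasted 3 days. The deposited lists give only the position of each region that passed the authors' FDR threshold. No read number or fold change stands behind a region here, the depth of each library is not in the lists and was not used here, and with 1 library per condition no difference was tested. Intervals below are exact 95% intervals and cover counting error over regions or gene starts only.

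The sequences below are examples with a TATA element close to the start and are not typical of the set. Such an element was in 8 of the 347 promoters (2.31%), beside 4.32% of all starts without an island. They are the 200 bases before the TSS, 5′ to 3′ on the gene's strand, from GRCh37, of 7 promoters that overlap no annotated exon there. They were shown because TATAAA begins 35 to 20 bp before the TSS in each. Capitals mark the TATA element TATAAA on either strand. They also mark the NF-Y element CCAAT, the AP-1 consensus TGANTCA and the TEAD consensus GGAATG on either strand.
MT2A (chr16:56642296-56642495, plus strand): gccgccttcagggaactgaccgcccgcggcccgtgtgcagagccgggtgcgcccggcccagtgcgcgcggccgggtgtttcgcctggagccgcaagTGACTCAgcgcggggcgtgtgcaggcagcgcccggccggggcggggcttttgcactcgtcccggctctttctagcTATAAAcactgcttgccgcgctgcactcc
EDN1 (chr6:12290394-12290593, plus strand): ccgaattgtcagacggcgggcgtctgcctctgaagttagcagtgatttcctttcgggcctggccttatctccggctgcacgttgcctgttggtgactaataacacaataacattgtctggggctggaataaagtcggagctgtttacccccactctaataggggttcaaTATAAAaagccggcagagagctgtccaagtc
ANXA1 (chr9:75766581-75766780, plus strand): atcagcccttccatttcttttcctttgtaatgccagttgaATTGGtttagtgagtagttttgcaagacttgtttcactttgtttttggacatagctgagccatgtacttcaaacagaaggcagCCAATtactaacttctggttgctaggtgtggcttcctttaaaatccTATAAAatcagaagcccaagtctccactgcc
EREG (chr4:75230662-75230861, plus strand): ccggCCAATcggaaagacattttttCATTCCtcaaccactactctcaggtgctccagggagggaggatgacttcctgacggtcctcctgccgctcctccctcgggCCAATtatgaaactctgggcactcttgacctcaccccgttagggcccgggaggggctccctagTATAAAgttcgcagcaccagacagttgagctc
AREG (chr4:75310653-75310852, plus strand): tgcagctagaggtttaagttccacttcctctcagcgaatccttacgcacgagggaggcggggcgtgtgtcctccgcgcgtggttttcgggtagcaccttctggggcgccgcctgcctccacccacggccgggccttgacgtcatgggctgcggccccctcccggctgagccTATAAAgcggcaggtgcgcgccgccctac
MYCT1 (chr6:153018832-153019031, plus strand): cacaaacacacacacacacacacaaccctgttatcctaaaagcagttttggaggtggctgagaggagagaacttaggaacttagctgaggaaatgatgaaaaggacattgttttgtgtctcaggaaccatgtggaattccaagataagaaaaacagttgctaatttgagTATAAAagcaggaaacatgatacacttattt
RNF144B (chr6:18387381-18387580, plus strand): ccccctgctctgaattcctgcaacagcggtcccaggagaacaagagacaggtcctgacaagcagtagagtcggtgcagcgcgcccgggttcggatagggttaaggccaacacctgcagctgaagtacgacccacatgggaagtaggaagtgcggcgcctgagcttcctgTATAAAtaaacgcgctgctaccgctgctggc

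These promoters ranged from no CpG to many. The 200 bases before ANXA1 and before MYCT1 held 0 CpG dinucleotides. EREG had 8, EDN1 9 and RNF144B 12 in the same length. AREG held 20 and MT2A, a metallothionein gene that binds zinc and copper, held 25, with a GC content of 67% and 72%. AREG and MT2A failed the island test over the wider window, AREG on GC content (46.3%) and MT2A on the CpG ratio (0.56). The TATA element began 29 bp before the TSS in AREG and MT2A, 32 bp in EREG and 31 bp in EDN1, ANXA1, MYCT1 and RNF144B.

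The absence of an island in a window of 1 kb on each side was therefore not the absence of CpG-rich sequence in the region. Each region was scanned in windows of 500 bp, in steps of 50 bp, with the same 2 thresholds. In 183 of the 347 regions (52.7%, interval 47.3 to 58.1%) a CpG-rich window was found and none lay wholly beyond 1 kb of the TSS. In 97 regions (28%, interval 23.3 to 33%) such a window lay wholly beyond 1 kb of the TSS. In 67 regions (19.3%, interval 15.3 to 23.9%) no CpG-rich window was found anywhere. The share with a window beyond 1 kb ranged from 10.2% to 45.6% over other definitions of the gene start, the island and the window. Only the 67 regions with no CpG-rich window fitted the label of a promoter without CpG-rich sequence throughout the reduced region. Among the 788 regions with an island at the TSS, 2 (0.254%) had no such window. A window wholly beyond 1 kb of the TSS was at least as common there, in 265 regions (33.6%, interval 30.3 to 37%).

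The test that was failed divided the promoters along the same line. On GC content alone 131 failed, with a median GC of 47.6% and a median CpG ratio of 0.709. On the CpG ratio alone 59 failed, with medians of 53.5% and 0.547. On both 157 failed, with medians of 43.6% and 0.363, and 57 of the 67 regions without a CpG-rich window belonged to them. The median length of the regions was 4199 bp (interval 3949 to 4299 bp) for GC alone, 5149 bp (4449 to 5999 bp) for the ratio alone and 4499 bp (4199 to 4749 bp) for both. These values describe how the promoters were selected and carry no test.

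**Figure D1:**
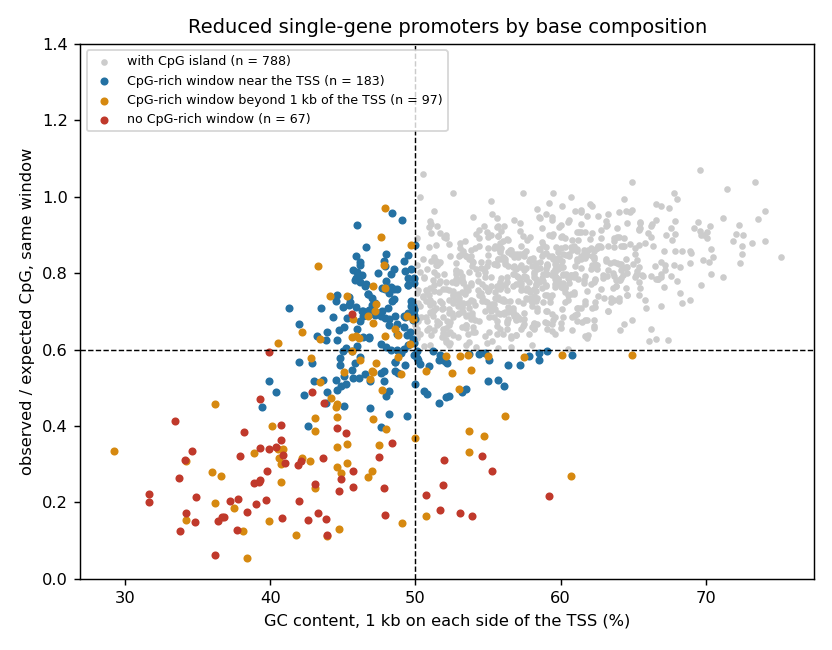
Each point is a reduced single-gene promoter, placed by GC content (x axis, percent) and by the ratio of observed to expected CpG (y axis) 1 kb on each side of the TSS, with dashed lines at 50% and 0.6. Grey points are the 788 promoters with a CpG island; the 67 regions without any CpG-rich window (red) lie mostly at low GC and low ratio, and the 183 with such a window near the TSS (blue) crowd along both thresholds.

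The share of gene starts in the reduced list was smaller without an island than with an island when all compositions were pooled. Of 10666 protein-coding gene starts without an island, 604 (5.66%, interval 5.23 to 6.12%) had a reduced region within 3 kb at 2.5 μM, and 347 (3.25%) were the only gene start of their region. The other 257 shared a region with another gene start. Of 9432 gene starts with an island, 1313 (13.9%, interval 13.2 to 14.6%) had a reduced region. Starts that failed on GC content alone had the largest share: 266 of 981 had a reduced region (27.1%, interval 24.4 to 30%). Starts that failed on the ratio alone had the smallest, with 115 of 4925 (2.34%, interval 1.93 to 2.8%), and those that failed both gave 223 of 4760 (4.68%, interval 4.1 to 5.32%).

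At a like CpG ratio, the share was higher where the GC content was 50% or less. Between ratios of 0.6 and 0.8 it was 25% of 885 starts (interval 22.2 to 28%) at a GC content of 50% or less and 11.6% of 6751 (10.9 to 12.4%) above 50%. Between 0.8 and 1 it was 47.4% of 95 starts (37 to 57.9%) against 19.8% of 2617 (18.3 to 21.4%). Between 0.4 and 0.6 it was 11% of 994 against 3.27% of 2753. At a ratio of 0.2 or less the shares were 1.96% and 1.21%, with overlapping intervals. Where no CpG-rich window lay within 3 kb of the start, 97 of 4883 starts without an island had a reduced region (1.99%, interval 1.61 to 2.42%), against 507 of 5783 (8.77%, interval 8.05 to 9.53%) where there was one. A gene start with no H3K4me3 in untreated cells could not enter the list, and the regions marked in untreated cells were not analysed here. A start that is rarely marked and a start that is marked but rarely reduced therefore cannot be told apart.

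**Figure D2:**
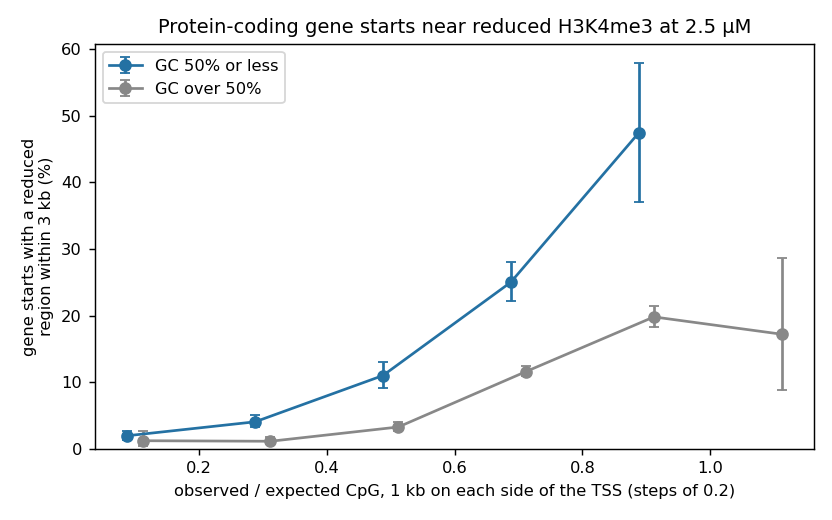
Share of protein-coding gene starts with a reduced region within 3 kb at 2.5 μM (y axis, percent) by the ratio of observed to expected CpG (x axis, steps of 0.2), for starts with a GC content of 50% or less (blue) and over 50% (grey). Error bars are exact 95% intervals over gene starts; the blue points rise from 1.96% to 47.4% and lie above the grey points from a ratio of 0.2 upward.

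The 15 gene lists used below were chosen with earlier results of these data known. A list share above that of all starts may reflect that choice, and no enrichment was tested. The promoters from the cell cycle list were all of the low-GC, CpG-dense kind. Of its 48 genes, 25 had a start without an island and 8 of these were among the 347 (32%, beside 3.25% of all starts without an island): ASPM, CCNA2, CDK1, ECT2, KIF20B, SGO1, SMC2 and TPX2. All 8 failed on GC content alone, with GC between 46% and 49.7% and ratios between 0.653 and 0.848, and all 8 held a CpG-rich window near the TSS. Of the 25 starts in the list, 15 failed on GC content alone. In the set were 8 of these 15, beside 13.4% of all 981 starts of that class. Counting any reduced region within 3 kb, 10 of the 25 had one (40%, beside 5.66% of all starts without an island). So did 11 of the 23 listed starts with an island (47.8%, beside 13.9% of all such starts). CDK1 and CCNA2 encode the mitotic kinase and the cyclin A of S phase and mitosis. The CDK1 region (chr10:62537151-62542949, GRCh37) was 5799 bp long and held exons 1 and 2 of 8, and that of CCNA2 (chr4:122741301-122745799) was 4499 bp long and held exons 1 to 4 of 8. ECT2, an exchange factor for RHOA in cytokinesis, had the longest region of the list at 6499 bp, and SGO1, the guardian of sister centromeres, the shortest at 3899 bp. TPX2, which activates Aurora A on the spindle, had 5299 bp. None of the 8 regions was reduced at 1 μM.

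Most genes of translation in the set were alike. Of 18 starts without an island among 56 listed genes, 7 were single-gene promoters in the set (38.9%, beside 3.25% of all such starts). They were EEF1A1, RPL21, RPL23, RPL34, RPL35A, RPS23 and RPS4X. Of the 18 starts, 7 failed on GC content alone, and 5 of these were in the set, beside 13.4% of all 981 starts of that class. RPL17, RPL41 and RPS18 also had a reduced region within 3 kb but shared it with another gene start. With these, 10 of the 18 had a reduced region (55.6%, beside 5.66% of all starts without an island). So did 14 of 38 listed starts with an island (36.8%, beside 13.9% of all such starts). The 6 ribosomal protein genes, which encode parts of the large (RPL) and small (RPS) subunits, had regions of 3349 bp (RPS23) to 5399 bp (RPL34), each with a CpG-rich window near the TSS. RPL34 failed both tests (GC 44.8%, ratio 0.56) and the other 5 failed on GC content alone. EEF1A1, which encodes the elongation factor that delivers aminoacyl-tRNA to the ribosome, differed from them. Its annotated gene start lay 911 bp outside the region, and the 9599 bp region covered the canonical start 4555 bp downstream, which has an island. Ribosomal protein genes have many processed copies in the genome, and the aligner settings of the authors allowed reads with up to 20 alignments. How many reads came from such copies was not tested.

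Most of the promoters from the cytokine, cytokine receptor and interferon lists held no CpG-rich window, 3 of 4, 2 of 2 and 3 of 4. The cytokine and chemokine list had 4 of 23 starts without an island in the set (17.4%, beside 3.25% of all such starts). CXCL8, a chemokine for neutrophils, had a region of 4699 bp (chr4:74605651-74610349) that held the whole gene with exons 1 to 4, a GC content of 36.4% and a CpG ratio of 0.152. TNFSF10, the death ligand TRAIL, had 4899 bp and a ratio of 0.158. IL1A, which encodes interleukin 1 alpha, had 2849 bp over exons 1 to 3 of 7 and a ratio of 0.204. None of these 3 regions held a CpG-rich window. CXCL1, another neutrophil chemokine, differed in sequence, with a GC content of 56.1%, a ratio of 0.504 and a CpG-rich window near the TSS, and its 5149 bp region also held the whole gene. Cytokine genes with an island were reduced too: CXCL2 and CXCL3 were 2 of 5 such starts (40%, beside 13.9% of all starts with an island). In the list of cytokine receptors, TNFRSF1A and IL31RA were 2 of 15 starts without an island (13.3%, beside the same 3.25%). TNFRSF1A is the main receptor for TNF and IL31RA a subunit of the interleukin 31 receptor. Their regions were 7149 bp and 4399 bp long and held no CpG-rich window. Counting any reduced region within 3 kb, 3 of the 15 receptor starts without an island had one (20%, beside 5.66% of all such starts). IL6ST, OSMR and TNFRSF10B, receptor genes with an island, had a reduced region, 3 of 15 (20%, beside 13.9% of all starts with an island).

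The interferon list gave 4 of 32 starts without an island (12.5%, beside 3.25% of all such starts), and all 4 failed both tests. IFIT3, an antiviral protein induced by interferon, had a region of 7949 bp (chr10:91086051-91093999), the longest of the list. IFI44 had 4749 bp, and the guanylate-binding proteins GBP3 and GBP4 had 2849 bp and 2499 bp. IFIT3, IFI44 and GBP3 held no CpG-rich window, with ratios of 0.205, 0.171 and 0.162, and GBP4 held such a window near its TSS. IFIT5, of the same family as IFIT3, had an island and a reduced region. It was 1 of 10 island starts in the list (10%, beside 13.9% of all starts with an island). Counting any reduced region within 3 kb, 5 of the 32 starts without an island had one (15.6%, beside 5.66% of all such starts).

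The protease and matrix lists hold genes that act on the surroundings of the cell. Of the proteases and their inhibitors, 4 of 28 starts without an island were in the set (14.3%, beside 3.25% of all such starts). MMP1, an interstitial collagenase, had a region of 3949 bp (chr11:102665151-102669099) over exons 1 to 6 of 10, with a ratio of 0.157. PLAT, the tissue plasminogen activator, had 3999 bp and the cystatin CST1, an inhibitor of cysteine proteases, had 3249 bp, and all 3 lacked a CpG-rich window. PLAUR, the urokinase receptor, had 3799 bp and a CpG-rich window beyond 1 kb of its TSS. Of the matrix genes, 3 of 25 were in the set (12%, beside the same 3.25%). With an island, 1 of 9 starts in the protease list (11.1%) and 7 of 17 in the matrix list (41.2%) had a reduced region. The share of all starts with an island was 13.9%. LAMB3 encodes a laminin chain that anchors epithelia to their basement membrane, and its region (chr1:209819301-209827049) was 7749 bp long without a CpG-rich window. The region of the collagen gene COL8A1 was 6599 bp long and held such a window near the TSS.

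Adhesion and growth factor genes had long regions. Of 14 adhesion genes without an island, 2 were in the set (14.3%, beside 3.25% of all starts without an island). They were CD44, the hyaluronan receptor, and CDH11, a mesenchymal cadherin. Counting any reduced region within 3 kb, 3 of the 14 had one (21.4%, beside 5.66% of all starts without an island). With an island, 10 of 22 adhesion genes had a reduced region (45.5%, beside 13.9% of all such starts). The CD44 region (chr11:35159151-35167199) was 8049 bp long and ran 6770 bp past the gene start into intron 1, and the promoter failed on the ratio alone (0.519). The CDH11 region was 9199 bp long and covered a canonical start with an island 4049 bp downstream of the gene start. Of 17 growth factor and receptor genes without an island, AREG, EREG, EDN1 and AXL were in the set (23.5%, beside the same 3.25%). With an island, 12 of 34 genes of that list had a reduced region (35.3%). AREG and EREG encode ligands of the EGF receptor, and their regions were 5399 bp and 6449 bp long. EDN1, the endothelin 1 gene, had 7149 bp, and AXL, a receptor tyrosine kinase, had 8999 bp with its nearest CpG-rich window 6573 bp from the TSS. A further copy annotated as AREGB had a region of 5549 bp. All 300 bases of the AREG and AREGB promoters were identical, so the 2 regions cannot be told apart by reads in that sequence and may not be independent.

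The remaining lists held 1 such promoter or none. ANXA1, a calcium-dependent membrane protein of the annexin family, was the only one of 19 starts (5.26%), MT2A 1 of 25 (4%) and SLC7A11, the cystine transporter that feeds glutathione synthesis, 1 of 15 (6.67%). No gene was found among 22 actin and muscle-type cytoskeleton genes, 16 keratin and other filament genes and 4 AP-1 and immediate early genes without an island. Set beside 3.25% of all starts without an island, these counts of 0 and 1 are near the background. Counting any reduced region within 3 kb, the annexin and S100 list had 2 of 19 (10.5%) and the solute carriers 2 of 15 (13.3%), beside 5.66%. Starts with an island in these lists were often reduced. The shares were 3 of 6 annexin and S100 starts (50%), 2 of 12 redox starts (16.7%) and 5 of 22 solute carrier starts (22.7%). They were 8 of 23 for actin (34.8%), 2 of 6 for filaments (33.3%) and 10 of 23 for AP-1 (43.5%), beside 13.9%. Small counts carry wide errors, and no list was tested.

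**Figure D3:**
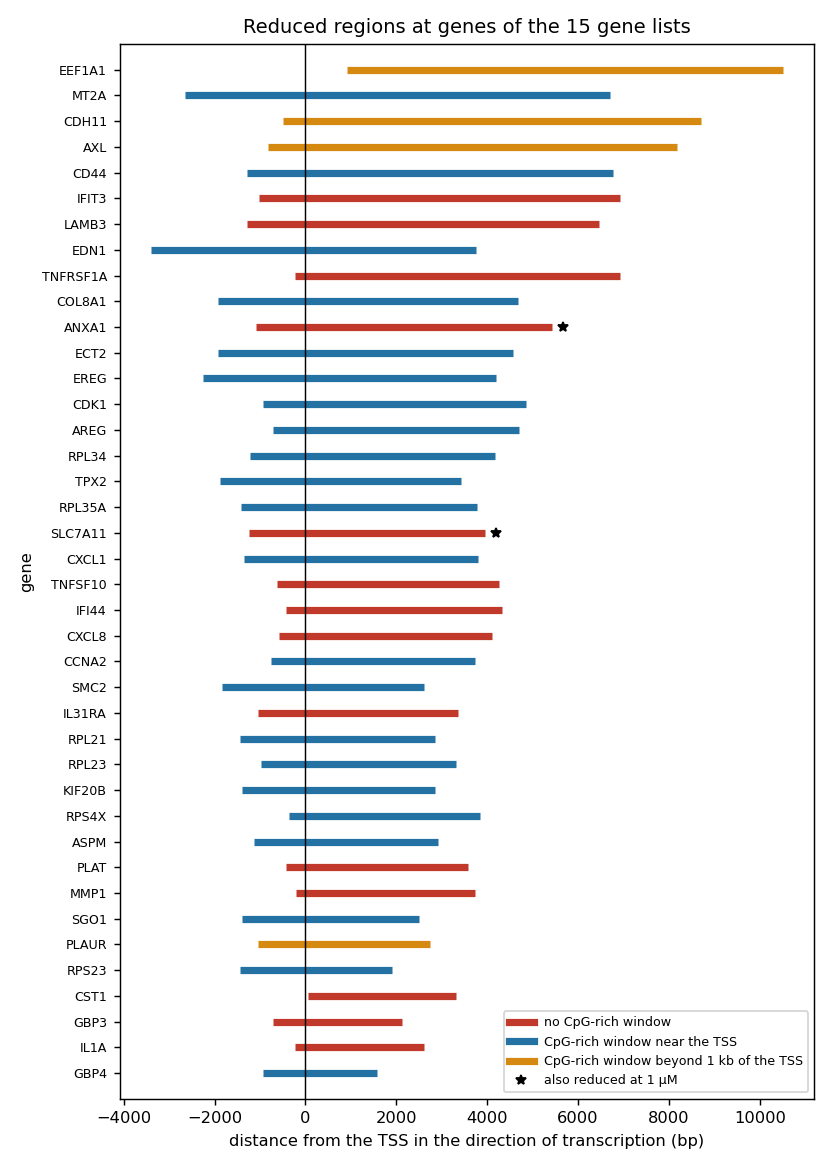
Reduced regions of 40 genes in a gene list, drawn as bars from their upstream to their downstream end in bp from the TSS (x axis, vertical line at 0), longest at the top. Red bars held no CpG-rich window, blue bars held such a window near the TSS and orange bars beyond 1 kb of it; stars mark ANXA1 and SLC7A11, which were also reduced at 1 μM, and most bars reach farther downstream than upstream.

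Regions at promoters without an island were shorter than those at island promoters. Their median length was 4349 bp (interval 4199 to 4599 bp), with quartiles of 3549 and 5449 bp and a range of 2199 bp (CARD6) to 16999 bp (NR2F2). With an island the median was 5349 bp (5199 to 5499 bp). Over all 347, the upstream side differed more than the downstream side. The median region began 1019 bp before the TSS (interval 924 to 1109 bp), beside 1505.5 bp (1431 to 1571 bp) with an island, and ended 3425 bp after it (3043 to 3606 bp), beside 3664 bp (3533 to 3835 bp). In 322 of 347 regions (92.8%) the downstream side was the longer, and in 737 of 788 with an island (93.5%). The 67 regions without a CpG-rich window began closer still to the TSS, with a median of 732 bp (589 to 979 bp). They ended 3499 bp after it (2959 to 3952 bp). In the 183 regions with such a window near the TSS the downstream side differed more. Their medians were 1207 bp before the TSS (1100 to 1283 bp) and 2748 bp after it (2587 to 2919 bp). Extents were measured from the gene start. The canonical start lay over 1 kb from it at 22.2% of the 347 and at 4.57% with an island.

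The TSS lay inside the region at 313 of the 347 promoters (90.2%, interval 86.6 to 93.1%), beside 784 of 788 (99.5%) with an island. Of the other 34, 31 lay wholly downstream of the gene start and 3, at RNF10, CELF2 and DNAJC2, wholly upstream. Exon 1 of the canonical transcript was in the region for 321 of 345 genes that have such a transcript, and a later exon for 126. The median region held 7.24% of its gene. For 10 short genes the region held all of it, among them CXCL1, CXCL8, MT2A, NR2F2 and ZFP36L1. A non-coding gene start lay within 3 kb of the TSS at 128 promoters (36.9%) and at 412 with an island (52.3%), and at 7 of the 67 without a CpG-rich window (10.4%).

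**Figure D4:**
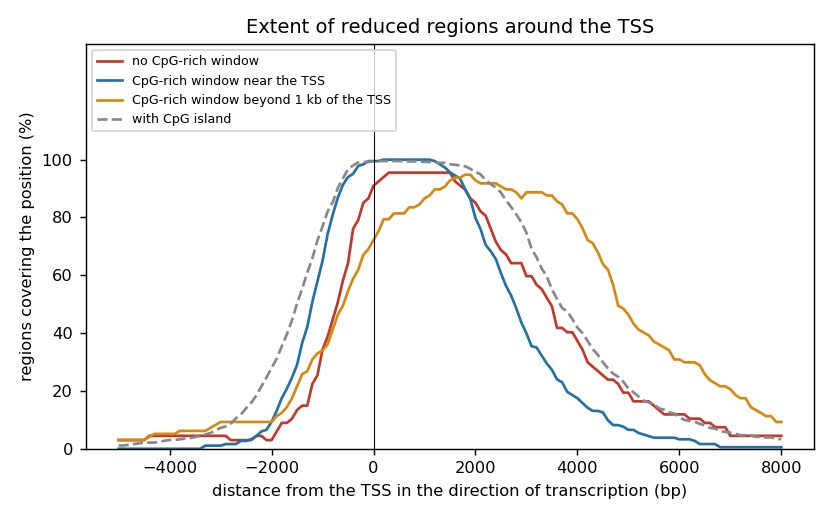
Share of regions that cover each position (y axis, percent) by distance from the TSS in the direction of transcription (x axis, bp, steps of 100 bp). Regions without a CpG-rich window (red, 67), with such a window near the TSS (blue, 183), with such a window beyond 1 kb of the TSS (orange, 97) and with an island (grey dashes, 788) all reach farther downstream than upstream, and the orange curve, with a median downstream extent of 4794 bp, reaches farthest.

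Where the CpG-rich window was away from the gene start, it often marked another start of the same gene. Of the 97 regions with a window beyond 1 kb, 62 belonged to genes whose canonical start lay over 1 kb from the gene start, and 58 covered a canonical start with an island. Over all 347, 64 regions (18.4%, interval 14.5 to 22.9%) covered a canonical start with an island, in each case downstream of the gene start, at a median distance of 1699 bp. NR2F2, ARID1A, SPRY4, ZFP36L1, PLOD2 and FUT8 were of this kind. NR2F2, an orphan nuclear receptor, had its canonical start 4762 bp downstream of the gene start, and that of PLOD2, a lysyl hydroxylase of collagen, lay 2541 bp downstream. Except at FUT8, the reduced region of these genes spanned both starts, and the lists do not divide the change between them. The FUT8 region began 191 bp downstream of the gene start and covered only the canonical start. In 11 genes the canonical start with an island lay outside the region. CELF2 had it 219475 bp and MKLN1 217780 bp downstream of the gene start, and EPC1 31640 bp. SREK1, PPM1A and NDRG1, with the lowest ratios of the set next to ANTXR2 and EHF (0.055 for SREK1 to 0.114 for PPM1A and EHF), each had a gene start outside the region and a canonical start with an island inside it. EHF, an ETS factor of epithelia, differed from these 3: its start was canonical, lay in the region and had no CpG-rich window in 9899 bp.

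The longest regions mixed all kinds. Below NR2F2 stood SPRY4, a feedback inhibitor of RAS and MAPK signalling, with 11449 bp, and ZMYND8, a reader of histone marks, with 11149 bp. CHD2, a chromatin remodeller, had 10899 bp, and ARID1A, a subunit of the BAF complex, had 10749 bp. ZFP36L1, which promotes decay of AU-rich mRNAs, had 10299 bp, and EHF and ZNF608 each had 9899 bp. ZMYND8, EHF and ZNF608 held no CpG-rich window. CHD2 also had the lowest GC content of the set, 29.2%, followed by BCHE, the butyrylcholinesterase gene, a gene annotated only as ENSG00000255641 (both 31.6%), CLEC2B (33.4%) and CARD6 (33.7%). NR2F2 and EEF1A1 reached farthest downstream of the gene start, 15582 bp and 10509 bp, followed by ZFP36L1, EHF and HYLS1 with 9719, 9409 and 9190 bp.

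At 1 μM 20 of the 347 regions were also in the reduced list (5.76%, interval 3.56 to 8.76%), beside 143 of all 2063 regions (6.93%) and 50 of 788 with an island (6.35%, interval 4.75 to 8.28%). These shares differ by less than their counting error. Counted over gene starts, 28 of 10666 without an island (0.263%) and 72 of 9432 with an island (0.763%) had a reduced region at 1 μM. Both doses were compared with the same untreated library, so a region in both lists is not an independent repeat. Among the 20 genes were NR2F2, SPRY4, CHD2, EHF, ETV1, PLOD2, CD274, SAP30, ARRDC3, ANXA1, FUT8, TMEM156, RABGGTB, BCL2A1, KLHL4, SLC7A11, NCEH1, ATF7IP and EPC1. SAP30 is a subunit of the SIN3 complex itself, CD274 encodes the immune checkpoint ligand PD-L1, BCL2A1 an inhibitor of apoptosis and ETV1 an ETS factor. The SAP30 promoter was the CpG-densest of these 20, with a ratio of 0.894 at a GC content of 47.6%.

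The regions found at both doses were long ones. Their median length at 2.5 μM was 6724 bp (interval 6199 to 9299 bp), beside 4249 bp (4149 to 4499 bp) for the other 327. None of the 174 regions up to 4349 bp was found at 1 μM, 4 of 87 were between 4349 and 5449 bp (4.6%, interval 1.27 to 11.4%), and 16 of 86 beyond that (18.6%, interval 11 to 28.4%). With an island the last 2 shares were 0.455% of 220 and 13.1% of 373 (9.88 to 17%). Within a pair the lengths were alike. The 1 μM region was longer at 9 promoters, equal at 6 and shorter at 5, and it covered at least 91.5% of the 2.5 μM region in each. The lengths at ETV1 differed most, 12549 bp at 1 μM against 9299 bp at 2.5 μM, while ANXA1 (6499 bp) and SLC7A11 (5199 bp) had equal lengths. Without a CpG-rich window 7 of 67 regions were found at 1 μM (10.4%, interval 4.3 to 20.3%), with a window near the TSS 5 of 183 (2.73%, 0.893 to 6.26%) and with a window beyond 1 kb 8 of 97 (8.25%, 3.63 to 15.6%). By failed test the shares were 8.92% for both, 3.39% for the ratio alone and 3.05% for GC alone, with overlapping intervals. The part of region length in these shares was not tested.

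**Figure D5:**
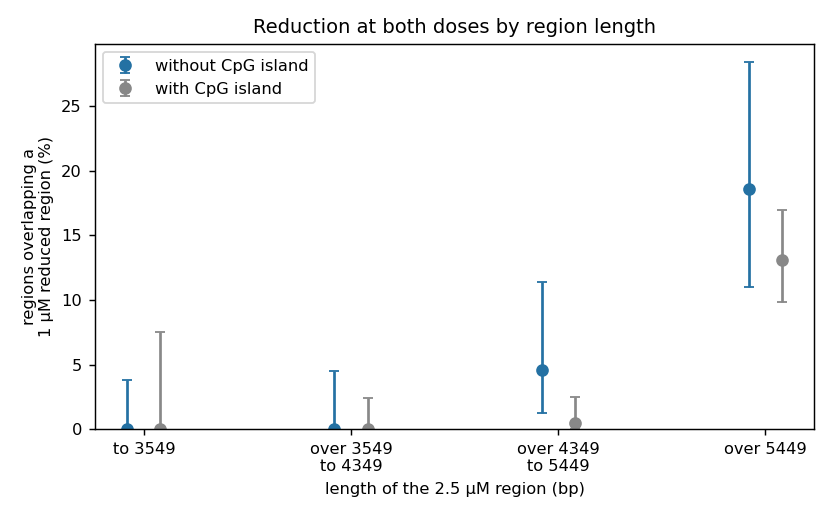
Share of 2.5 μM regions that overlap a reduced region at 1 μM (y axis, percent) by the length of the 2.5 μM region (x axis, bp, divided at the quartiles of the 347 regions), without an island (blue) and with an island (grey). Error bars are exact 95% intervals over regions; both groups stand at 0 up to 4349 bp and at 18.6% and 13.1% over 5449 bp.

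Short sequence motifs were counted on both strands from 250 bp before to 50 bp after each TSS, a window of 300 bp. TATAAA was in 51 of 347 promoters (14.7%, interval 11.1 to 18.9%), beside 15.8% of all 10666 starts without an island and 5.33% of those with an island. It began 35 to 20 bp before the TSS, where a TATA box acts, in 8 promoters (2.31%), beside 4.32% of all starts without an island. CCAAT, the NF-Y element, was in 45.2% (39.9 to 50.6%) beside 37.6% and 33.8%. GGGCGG, the core of the SP1 site, was in 37.5% (32.4 to 42.8%) beside 32% and 75%. The E-box CACGTG was in 4.61% (2.66 to 7.38%) beside 6.94% and 9.91%, TGANTCA in 11.2% (8.12 to 15%) beside 9.23% and 3.14%, and GGAATG in 17% (13.2 to 21.4%) beside 15.7% and 9.63%.

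The 67 promoters without a CpG-rich window were set beside the 4883 starts that had none within 3 kb. TATAAA was in 31.3% of the 67 (interval 20.6 to 43.8%) and in 23.6% of the 4883, TGANTCA in 20.9% (11.9 to 32.6%) and 12.7%, and GGGCGG in 11.9% (5.3 to 22.2%) and 13.1%. TATAAA 35 to 20 bp before the TSS went the other way, with 2.99% of the 67 (0.364 to 10.4%) and 6.86% of the 4883. Each of these background shares lay inside the interval of the 67. CXCL8, MMP1, IL1A, IL31RA and GBP3 were among the 14 promoters with TGANTCA. Other listed genes among the 67 had no TGANTCA, such as TNFSF10, TNFRSF1A, IFIT3, IFI44, LAMB3, ANXA1 and SLC7A11. A match says that these letters are present and is no measure of binding.

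Some members were near a threshold. On GC content BCAP29 and SNAPC1 (both 49.98%) and TMEM33 (49.93%) lay just inside, and ACADM, CTBS and RPL24 (each 50.02%) just outside. On the CpG ratio IL7 (0.597), PTPN1 (0.596) and BCAT1 (0.595) lay just inside, and MBP (0.601), LPP (0.605) and ME3 (0.606) just outside. On distance CLK4 (2967 bp), NDRG1 (2916 bp) and CELF2 (2861 bp) lay just inside 3 kb, and regions 3219 bp from CTNNB1, 3346 bp from FAM186A and 3383 bp from ANXA2 just outside.

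The promoters lay on 21 chromosomes. Chromosome 1 held most, 38, and of the starts without an island on each chromosome the share in the set was highest on chromosome 5 (31 of 464, 6.68%) and chromosome 14 (20 of 320, 6.25%). It was 1.23% of 894 on chromosome 19, 1.21% of 414 on chromosome 16 and 1.45% of 621 on chromosome 17. None of 124 starts on chromosome 21 and none of 206 on chromosome 22 was in the set.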

How the data were processed

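The authors sequenced native H3K4me3 ChIP libraries of MDA-MB-231 cells, 1 each for no treatment, Tat-SID at 1 μM, Tat-SID at 2.5 μM and input DNA. Per the labels and the study's methods, reads were checked with FastQC (0.10.0), aligned to hg19 with Bowtie (1.0.0) and passed to SICER-df, which listed regions that differed from the untreated library. The labels also name MACS2 (2.1.0). Reads with up to 20 alignments were kept and reported once by the authors. The FDR threshold is stated differently in different places of the study, and none was applied again here. The name of the reduced 2.5 μM list carries the stricter value, the one in the study's results. The deposited lists hold a chromosome, a start and an end for each region and no other value. They were read as BED intervals, with length as end minus start, and positions are printed from 1. No region ended beyond its chromosome in GRCh37.

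Gene starts came from GENCODE release 44 on GRCh37 (20098 protein-coding genes, chromosome Y left out). GC content and CpG ratio were computed from the genome. Exact Clopper-Pearson intervals are given for shares and exact binomial order-statistic intervals for medians, with 95% confidence. The CpG test and both intervals were tested on simulated data. No test between conditions was run, since each has 1 library. The genes named were the 10 longest regions, those found at 1 μM, the extremes of GC content, CpG ratio and extent, those next to a threshold, those with TATAAA 35 to 20 bp before the TSS and those in 15 gene lists (563 genes). The members, the lists and the comparisons were chosen with earlier results of these data known. The list of increased regions was not used, and 3 genes that the rule names are not reported here. Alternatives were the TSS window, the CpG window and thresholds, the definition of the gene start, the gene set, a minimum length and the overlap that counts as shared. Scripts ran in Python 3.11.15 with scipy 1.17.1, pysam 0.24.0 and matplotlib 3.10.9.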

Additional observations from a re-analysis of the deposited data

How the results depend on the processing

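No paired analysis was possible because the labels give 1 library for every condition. The share of regions also found at 1 μM (5.76%) stayed within its interval under every alternative tried, between 4.73% and 7.32%. Wider or narrower CpG tests changed the set most. With 2 kb on each side 747 regions qualified, 65.8% of reduced single-gene promoters, with 8.25% of such starts reduced, a median length of 4649 bp, 95.2% covering the TSS and 19.1% with a CpG-rich window beyond 1 kb. With 500 bp on each side these shares were 21.9%, 4.58%, 86.3% and 45.6%, the median length was 4699 bp and the median downstream extent 4016.5 bp. A stricter island of higher GC content and CpG ratio gave 592 regions, 52.2% of single-gene promoters, 7.99% of starts and 94.1% covering the TSS. With the canonical start, 26.9% of single-gene promoters had no island, the downstream extent was 2993 bp, 98.9% covered the TSS and 11.3% held a window beyond 1 kb. With every transcript start these values were 21.6%, 3023 bp, 96.2% and 10.2%. Of the 355 promoters chosen by the canonical start, 261 were among the 347. A TSS window of 10 kb gave 6.57% of starts and 83.5% covering the TSS, and regions that must cover the TSS gave 5.12% of starts and 21.9% with a window beyond 1 kb. Windows of 200 bp raised this last share to 43.2%, and TATAAA at 35 to 20 bp before the TSS was in 2.31%. Beyond these values the results stayed within 1.5 times the count or within the interval. Curated RefSeq symbols and a minimum length of 1000 bp moved none. The lists give neither the reads behind a region nor the strength of a reduction, and an absent region may be one that missed the threshold.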
